A study of Mus musculus with 16 samples.

Results

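Enteroendocrine cells are the hormone-secreting cells scattered through the gut epithelium. Their genes were followed here in mouse colonic epithelium through 10 members: the peptide hormone genes Gcg, Pyy, Insl5, Sst and Cck, the granule proteins and enzymes Chga, Chgb, Pcsk1 and Tph1, and the transcription factor gene Neurod1. The members were chosen by symbol, each had exactly 1 probe set annotated to a single gene, and together they are 10 of the 19938 genes tested. The study used C57BL/6 mice and asked what secretory IgA (SIgA) received in milk and SIgA exported by the animal's own gut each contribute to the epithelium, with and without chemical injury. Pigr encodes the receptor that carries IgA across epithelium. Pups of Pigr+/- dams therefore received passive SIgA in milk, pups of Pigr-/- dams did not, and offspring that were Pigr+/- or Pigr-/- could or could not export active SIgA.

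This gave 4 SIgA groups, called here passive and active (Pigr+/- offspring of Pigr+/- dams), passive only (Pigr-/- offspring of Pigr+/- dams), active only (Pigr+/- offspring of Pigr-/- dams) and neither (Pigr-/- offspring of Pigr-/- dams). No group was Pigr+/+, so every mouse carried at least 1 disrupted Pigr allele. Each SIgA group was studied untreated and after drinking 2% dextran sulfate sodium (DSS) for 8 days, which damages the lining of the colon. Mice were gender-matched at 70 days of age, and each of the 8 groups had 2 arrays, each of RNA pooled from 3 mice. P-values therefore measured the spread between pools, and since the labels name no litters, dam genotype and litter cannot be told apart.

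As background, enteroendocrine cells arise from crypt progenitors under transcription factors that include Neurod1, and store their products in dense-core granules built around chromogranins. L cells of the colon make proglucagon, the precursor of GLP-1 and GLP-2, together with peptide YY and, in the distal colon, insulin-like peptide 5. Enterochromaffin cells make serotonin by way of the enzyme Tph1, and D cells make somatostatin. In whole epithelium these cells are a small minority, and in such bulk RNA fewer cells of a type and less RNA per cell cannot be told apart.

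The values were log2 intensities on Affymetrix whole-transcript arrays, on which 1 unit is a doubling. Pigr read 12.18 to 12.46 in the 8 arrays of Pigr+/- offspring and 11.34 to 11.70 in the 8 of Pigr-/- offspring, in the order of the labels. The mean of 12 colon epithelial markers was 12.26 to 12.49 in all 16 arrays. The arrays of the untreated passive and active group and untreated active only replicate 1 stood apart from the rest: the mean of 1285 chemosensory receptor and keratin-associated genes was 5.25 and 5.41 in that group, 4.87 in untreated active only replicate 1 and 4.45 to 4.70 in the other 13. Values without these arrays are given beside the main results they touch.

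Among the peptide hormones, Insl5, the relaxin-family hormone of distal L cells, ranged over the 16 arrays from 9.31 to 10.57 with a median of 10.10. Gcg ranged from 8.68 to 10.10 and Pyy, the ileal and colonic satiety peptide, from 8.49 to 9.90. Sst, the inhibitory hormone of D cells, ran from 7.33 to 7.71. Cck, a hormone made mainly in the upper small intestine, ran from 5.38 to 5.90 and lay below the median of all genes in every array, so differences in it were taken near the dim end of the scale. Of the granule genes, Chga and Chgb, the chromogranins that condense granule content, ranged from 9.02 to 9.74 and from 9.10 to 9.87. Tph1, which catalyses the rate-limiting step of serotonin synthesis, ranged from 7.60 to 8.48, and Pcsk1, the prohormone convertase that cuts proglucagon to GLP-1 and GLP-2, from 7.26 to 8.15. Neurod1 ranged from 5.17 to 6.97 and was above its array's median in 1 of 16 arrays.

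The members did not all follow one pattern across the 8 groups. Gcg, Pyy, Insl5, Chgb, Tph1 and Neurod1 had their lowest group mean in the untreated active only group, and Chga and Sst in the DSS-treated active only group. Cck was lowest in the untreated passive and active group and Pcsk1 in the DSS-treated passive and active group. Between neighbours in the order of group means, the 2 arrays of one group usually overlapped those of the next. For Gcg the order ran from 9.89 in DSS-treated passive and active arrays down to 8.89 in untreated active only arrays, and only the lowest group and the step below untreated passive only were clear of the next group. For Sst no group was clear of the next.

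**Figure D1:**
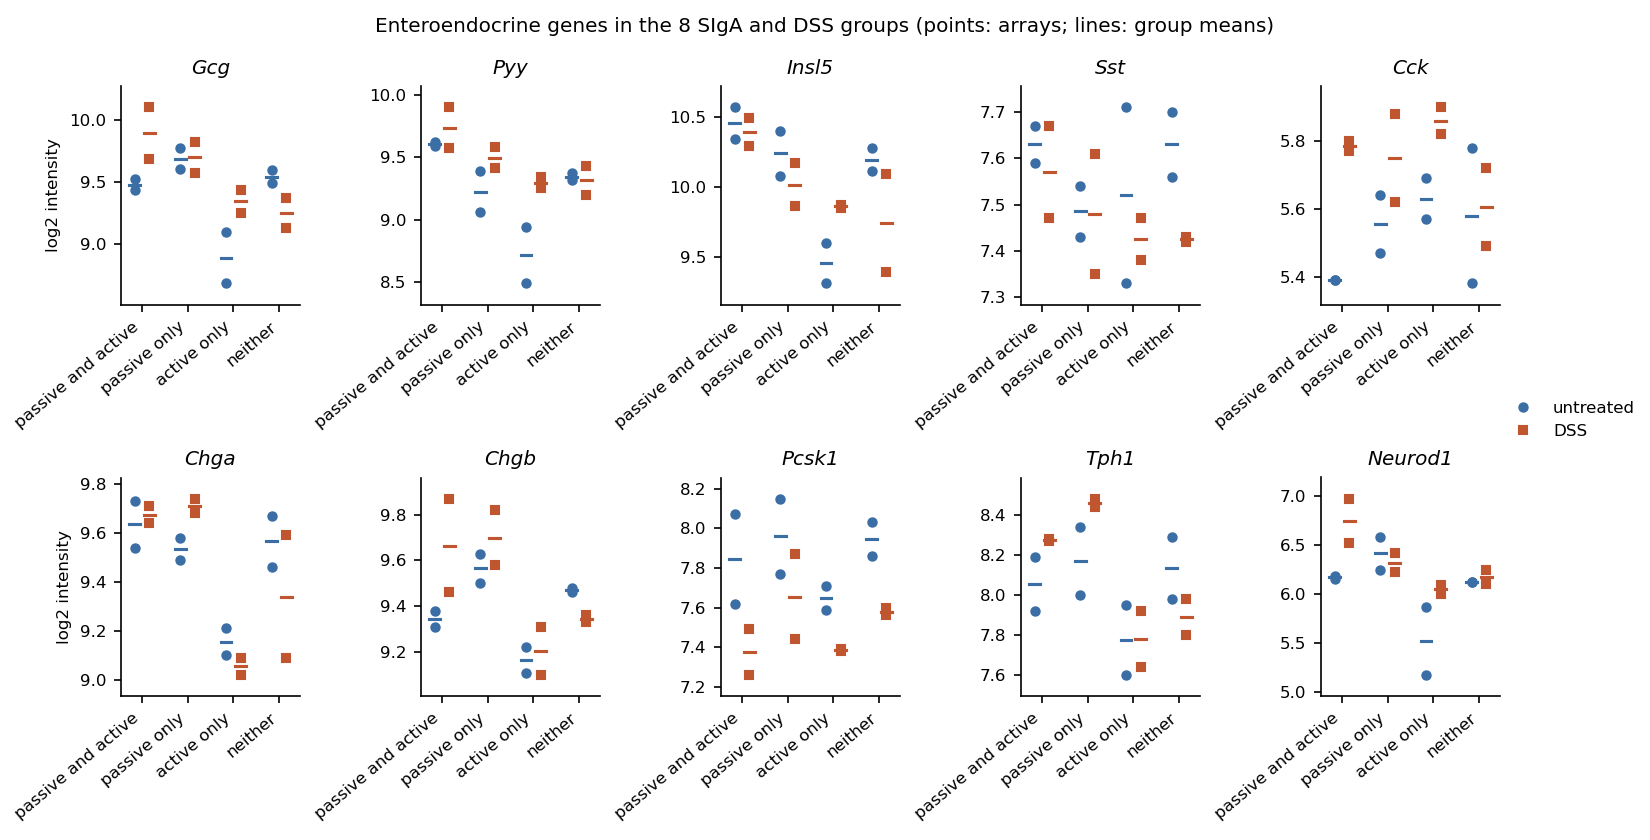
Log2 intensity of each of the 10 genes in the 16 arrays; the x axis gives the 4 SIgA groups, blue circles are untreated and red squares DSS-treated arrays, and short lines are means of 2 arrays. Each panel has its own y scale that does not start at 0; the untreated active only arrays are the lowest group for Gcg, Pyy, Insl5 and Neurod1.

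Short promoter stretches are shown for 6 members, those with a match to the letters given below within the stretch. These 6 lay on both sides of a division in the SIgA comparison after DSS. Chga, Chgb and Gcg had arrays without passive SIgA wholly below those with it, whereas Sst, Pcsk1 and Cck did not. Tph1, which is not shown, did not overlap either. The stretches are the 150 bases before the RefSeq transcript start in GRCm38.p6, written along the gene's strand. Capitals mark TGACGT, the core of the cAMP response element, on either strand, or CAGATG, an E-box of the kind that Neurod1 family proteins bind, on either strand. Overlapping matches on both strands make the longer capital runs in Chgb, Pcsk1 and Sst.
Chga, chr12:102554791-102554940, plus strand: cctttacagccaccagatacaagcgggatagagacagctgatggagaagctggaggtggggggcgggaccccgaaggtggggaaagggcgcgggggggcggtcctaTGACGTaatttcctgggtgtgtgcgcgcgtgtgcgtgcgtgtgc
Chgb, chr2:132781492-132781641, plus strand: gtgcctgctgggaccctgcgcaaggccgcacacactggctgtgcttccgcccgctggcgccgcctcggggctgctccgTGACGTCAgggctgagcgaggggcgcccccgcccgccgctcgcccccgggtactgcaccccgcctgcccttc
Gcg, chr2:62483654-62483803, minus strand: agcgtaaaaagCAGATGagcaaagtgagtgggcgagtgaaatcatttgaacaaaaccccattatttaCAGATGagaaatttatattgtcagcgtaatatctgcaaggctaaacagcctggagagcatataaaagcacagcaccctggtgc
Sst, chr16:23890845-23890994, minus strand: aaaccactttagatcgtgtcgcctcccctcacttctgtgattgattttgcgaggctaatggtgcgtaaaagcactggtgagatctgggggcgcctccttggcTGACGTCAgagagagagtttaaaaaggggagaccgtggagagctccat
Pcsk1, chr13:75089707-75089856, plus strand: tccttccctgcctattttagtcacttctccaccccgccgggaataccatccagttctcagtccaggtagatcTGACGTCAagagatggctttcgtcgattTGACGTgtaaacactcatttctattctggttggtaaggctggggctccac
Cck, chr9:121495695-121495844, minus strand: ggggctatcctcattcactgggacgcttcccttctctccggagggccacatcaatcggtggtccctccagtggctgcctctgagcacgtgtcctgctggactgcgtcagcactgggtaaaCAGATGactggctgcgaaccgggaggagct
The 10 members had 13 promoter windows, since some had more than 1 transcript start. In the 250 bases before the start, TGACGT was found in 4 of these 13 windows (Chga, Chgb, Pcsk1 and Sst). It was found in 6.47% of all 32851 mouse promoter windows. CAGATG was found in 3 of the 13 member windows (Gcg, Cck and 1 of Insl5) and in 14.4% of all windows. The Chga match began 44 bases before the start, that of Sst 48 bases before and those of Gcg 139 and 83 bases before. Members with the same letters lay on both sides of the division: TGACGT stood before Chga and Chgb as well as before Sst and Pcsk1, and CAGATG before Gcg as well as before Cck. Neither run of letters was found for Tph1, Pyy or Neurod1 in any of their windows.

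The first comparison asked how the members differed by passive SIgA after DSS injury, 4 arrays without against 4 with. All 10 members had lower means without passive SIgA, by 0.03 to 0.53 on the log2 scale, and 7 of them had an unadjusted p under 0.05: Gcg, Pyy, Insl5, Chga, Chgb, Tph1 and Neurod1. Of all 19938 genes, 2.75% were lower at that level and 55% had a difference below 0. No member passed the adjusted threshold of 0.05, and neither did any other gene (0%) by limma with Benjamini-Hochberg adjustment, against 788 genes at an unadjusted p under 0.05. The median difference over the members was -0.41, against -0.01 over all genes. Chga, Chgb, Tph1 and Gcg had all 4 arrays without passive SIgA below all 4 with it, and 1.97% of all genes did so in that direction.

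Chga after DSS read 9.71 and 9.64 with passive and active SIgA and 9.68 and 9.74 with passive only. It read 9.02 and 9.09 with active only and 9.59 and 9.09 with neither. The highest array without passive SIgA, 9.59, was thus just under the lowest with it. The difference was -0.49 ± 0.10 (SE; 1.41-fold lower; limma unadjusted p = 0.000373, adjusted p = 0.191).

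Tph1 separated the arrays by a wider margin. After DSS it read 8.27 and 8.28 with passive and active SIgA, 8.44 and 8.48 with passive only, 7.64 and 7.92 with active only and 7.98 and 7.80 with neither. The difference was -0.53 ± 0.12 (SE; 1.44-fold lower; limma adjusted p = 0.265). Chgb read 9.46, 9.87, 9.58 and 9.82 in the 4 DSS arrays with passive SIgA and 9.10, 9.31, 9.33 and 9.36 in the 4 without. The arrays did not overlap, and the difference was -0.41 ± 0.10 (SE; limma adjusted p = 0.415).

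Gcg was the hormone with the widest difference after DSS. It read 9.68 and 10.10 with passive and active SIgA, 9.82 and 9.57 with passive only, 9.43 and 9.25 with active only and 9.37 and 9.13 with neither. No array without passive SIgA reached the lowest array with it, and the difference was -0.50 ± 0.12 (SE; 1.42-fold lower; limma adjusted p = 0.415). The other L cell hormones overlapped between the groups: Pyy differed by -0.31 ± 0.12 and Insl5 by -0.41 ± 0.14 (SE; limma adjusted p = 1 for each). In Pyy the highest array without passive SIgA, 9.43 in the neither group, passed the lowest with it, 9.41 in passive only. Neurod1 differed by -0.42 ± 0.14, with its highest values, 6.52 and 6.97, in passive and active arrays.

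Sst, Cck and Pcsk1 gave no difference by passive SIgA after DSS that the spread between arrays could tell from 0. Their differences were -0.10 for Sst (95% interval -0.32 to 0.11), -0.03 for Cck (-0.25 to 0.18) and -0.03 for Pcsk1 (-0.31 to 0.24). The intervals leave room for a difference of up to about the size seen in Pyy.

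Without DSS the same contrast was led by the L cell hormones and Neurod1. Again no member passed the adjusted threshold, while 514 of all genes (2.58%) did. The members with an unadjusted p under 0.05 were Gcg, Pyy, Insl5, Chga and Neurod1, 5 of 10 and all lower, against 9.74% of all genes lower at that level. Insl5 differed by -0.52 ± 0.14 (SE; limma adjusted p = 0.0742), Neurod1 by -0.47 ± 0.14 (adjusted p = 0.0933), Pyy by -0.39 ± 0.12 (adjusted p = 0.0954) and Gcg by -0.36 ± 0.12 (adjusted p = 0.121). Only Neurod1 had all 4 arrays without passive SIgA below all 4 with it, and 2.1% of all genes did so in that direction. The median over the members was -0.19, against 0.03 over all genes. Leaving out the untreated passive and active group keeps this contrast in Pigr-/- offspring alone, where the median over the members was -0.03. There Insl5 was -0.04, Neurod1 -0.29, Pyy 0.12, Gcg -0.14 and Chga 0.03, and no gene was called.

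Chga differed by -0.23 ± 0.10, Tph1 by -0.16 ± 0.12 and Chgb by -0.14 ± 0.10 in untreated arrays, all smaller in size than after DSS. The test of that change, the interaction of passive SIgA with DSS, called no member, and 0.115% of all genes were called. Tph1 was the 1 member of 10 with an unadjusted p under 0.05 in it, near the 8.14% of all genes (-0.37 ± 0.17 SE; limma unadjusted p = 0.045, adjusted p = 0.606). For Chga the interaction was -0.27 ± 0.15 and for Chgb -0.27 ± 0.14 (limma adjusted p = 0.675 and 0.649). In Pigr-/- offspring alone, with the untreated passive and active group left out, the interaction was -0.52 for Tph1, -0.40 for Chga and -0.26 for Chgb, with an adjusted p of 1 for each. It was also -0.31 for Gcg, from -0.14, and -0.30 and -0.24 for Pyy and Insl5, from 0.07 and 0.11, none called. Untreated and DSS values of the passive SIgA difference were therefore not shown to differ for any member.

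**Figure D2:**
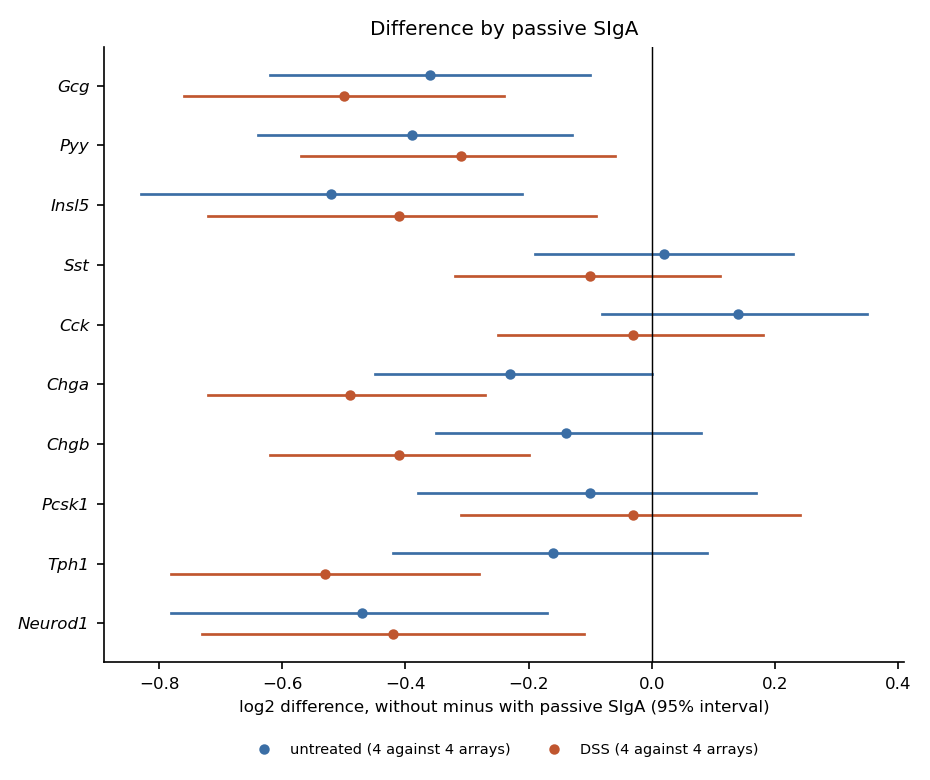
Log2 difference by passive SIgA (without minus with) for each gene, with 95% intervals from limma; blue is untreated and red DSS-treated, 4 against 4 arrays each. After DSS, Gcg, Chga, Chgb and Tph1 lie between -0.41 and -0.53, while Sst, Cck and Pcsk1 lie at -0.10 or closer to 0.

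Split by offspring genotype, the untreated contrast called 2 hormones in Pigr+/- offspring and no member in Pigr-/- offspring. Pyy and Insl5 were lower in active only than in passive and active arrays and passed the threshold, as did 3.84% of all genes in that direction. Pyy read 9.62 and 9.59 with passive and active SIgA and 8.94 and 8.49 with active only, a difference of -0.89 ± 0.17 (SE; 1.86-fold lower; limma adjusted p = 0.00792). Insl5 read 10.34 and 10.57 against 9.60 and 9.31, a difference of -0.99 ± 0.20 (SE; limma adjusted p = 0.0142). In both genes the arrays did not overlap, and 19.7% of all genes did so in that direction. Gcg (-0.59), Neurod1 (-0.66) and Chga (-0.48) were lower without passing (limma adjusted p of 0.0644, 0.0776 and 0.0762).

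In Pigr-/- offspring the untreated values of the same hormones were close together. Pyy read 9.06 and 9.39 with passive only and 9.32 and 9.37 with neither (0.12 ± 0.17). Insl5 read 10.08 and 10.40 against 10.11 and 10.28 (-0.04 ± 0.20). No member and no other gene (0%) was called, with no member but 1518 genes at an unadjusted p under 0.05. The interaction of passive SIgA with offspring genotype in untreated arrays was 1.01 ± 0.23 for Pyy and 0.95 ± 0.29 for Insl5 (limma adjusted p = 0.0607 and 0.169), where 1.15% of all genes passed. It called no member, so the split by genotype was not shown for either hormone.

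The Pigr+/- side of this split rests on the 3 arrays that stood apart and on untreated active only replicate 2. With the untreated passive and active group left out, the untreated passive SIgA contrast exists in Pigr-/- offspring alone, where it was 0.12 for Pyy, -0.04 for Insl5, -0.14 for Gcg, 0.03 for Chga and -0.29 for Neurod1, whose neither arrays both read 6.12 against 6.24 and 6.58 with passive only. Chgb, Tph1 and Pcsk1 were -0.09, -0.04 and -0.02, Sst 0.15 and Cck 0.02 there. Without replicate 2 of that group both calls were lost, with Pyy at -0.91 (limma adjusted p = 0.0624) and Insl5 at -0.88 (adjusted p = 0.156). Insl5 was also lost without untreated active only replicate 2 (adjusted p = 0.053). The part of the chemosensory shift in these calls was not tested.

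None of those 3 arrays enters the differences after DSS, although they enter the estimate of the spread that all arrays share. After DSS 8 members were below 0 in Pigr+/- offspring, with Cck at 0.07 and Pcsk1 at 0.01, against 52.2% of all genes. In Pigr-/- offspring 10 were, against 55.5% of all genes. No member passed the threshold in either. In Pigr+/- offspring 7 members were lower at an unadjusted p under 0.05, against 2.02% of all genes, with Chga at -0.62 ± 0.15 and Neurod1 at -0.70 ± 0.20. In Pigr-/- offspring 4 were, Gcg, Chga, Chgb and Tph1, against 2.11% of all genes, with Tph1 at -0.56 ± 0.17 and Gcg at -0.45 ± 0.17. No gene of any kind was called in either (0%). The interaction with offspring genotype after DSS called no member and no other gene (0%); no member and 426 genes had an unadjusted p under 0.05 in it.

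**Figure D3:**
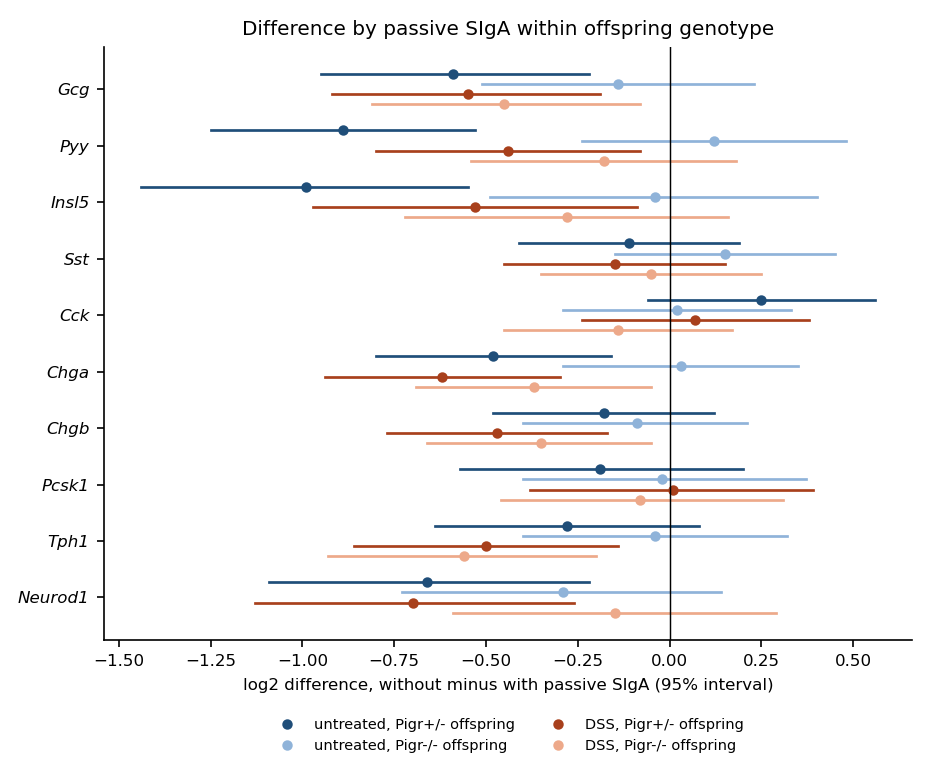
Log2 difference by passive SIgA (without minus with) within each offspring genotype and treatment, 2 against 2 arrays, with 95% intervals from limma. Pyy and Insl5 in untreated Pigr+/- offspring, at -0.89 and -0.99, lie farthest from 0; the intervals of Gcg, Chga, Chgb and Tph1 lie below 0 in both genotypes after DSS.

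The wider enteroendocrine programme was read through lists of other genes, described by counts and medians. After DSS, without against with passive SIgA, 11 other hormone genes had a median of 0.02, 25 other granule and secretory genes -0.03, 16 other transcription factors -0.03, 20 sensors of nutrients, microbes and stretch -0.05, and 23 receptor, transporter and protease genes acting on the members' products 0.03. None of these genes was called. At an unadjusted p under 0.05, 1 hormone, 5 granule genes, 1 transcription factor and 1 sensor were lower, and 1 gene of the last list was higher. Of all genes, 2.75% were lower and 1.2% higher at that level.

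The granule genes included the lowest value of these lists. Cpe, the carboxypeptidase that trims prohormones after the convertase cut, had a mean of 6.64 without and 7.28 with passive SIgA, with arrays that did not overlap (-0.64 ± 0.10 SE; limma unadjusted p = 2.12e-05; adjusted p = 0.0645). Snap25, a SNARE protein of granule exocytosis, differed by -0.45 ± 0.10 and did not overlap either (limma adjusted p = 0.278). Scg3, a granin that binds chromogranin A, differed by -0.34, Ddc, the decarboxylase that completes serotonin synthesis, by -0.26, and Nts, the hormone neurotensin, by -0.38. Scg3 and Nts had medians of 5.15 and 5.04 over the arrays, near the dim end of the scale. Slc6a4, the serotonin reuptake transporter of the epithelium, was higher by 0.24 ± 0.11 (unadjusted p = 0.0487). None of these passed the threshold.

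In untreated arrays Cpe differed by -0.02 and Snap25 by -0.17. The genes of the wider lists called there were Syt7, a calcium sensor of exocytosis, and Mnx1, a homeobox factor, both higher without passive SIgA, by 0.40 ± 0.08 and 0.49 ± 0.12 (limma adjusted p = 0.0231 and 0.0458). Without the untreated passive and active group they were 0.37 and 0.36, and neither was called (adjusted p = 0.505 and 0.647). Mnx1 had a median of 5.66 over the arrays, near the dim end of the scale.

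**Figure D4:**
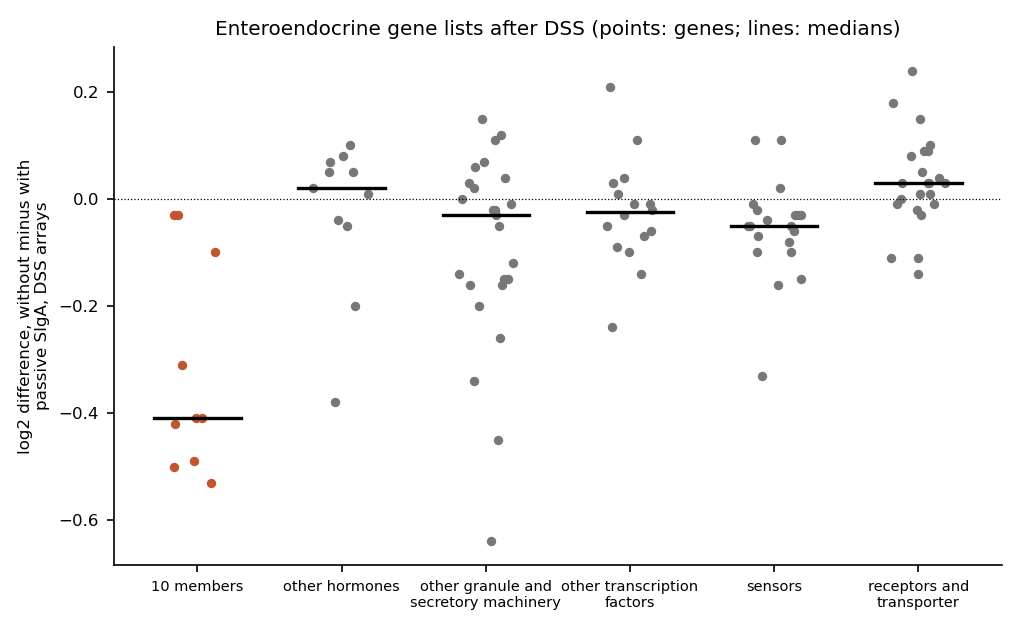
Log2 difference by passive SIgA (without minus with) in DSS-treated arrays for the 10 members and 5 lists of other enteroendocrine genes; points are genes, spread sideways at random, and lines are medians. The median is -0.41 for the members and between -0.05 and 0.03 for the other lists; the lowest grey point is Cpe at -0.64.

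Several of these genes are also neuronal, and Tph1 is also made by mast cells, so markers of other cells were read beside them. Of 12 neuron and glia markers none was called in either passive SIgA contrast, their median was 0.02 after DSS and 0.15 untreated, and their mean level was 5.83 to 6.35 over the arrays. Of 11 mast cell markers none was called; 8 were below 0 after DSS and 6 untreated, with medians of -0.05 and -0.12. Their lowest values were -0.50 after DSS (Mcpt2) and -0.67 untreated (Mcpt1), both proteases of mucosal mast cells. At an unadjusted p under 0.05, 2 of the 11 were lower untreated, against 9.74% of all genes, and none after DSS. Of 12 colon epithelial markers none was called, with a median of 0.01 after DSS. Of 14 neutrophil markers 12 were below 0 after DSS without passive SIgA, with a median of -0.22 and none called. At an unadjusted p under 0.05, 3 of the 14 were lower, against 2.75% of all genes. The part of mast cells and neutrophils in the members' differences was not tested.

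By DSS itself, averaged over the 4 SIgA groups (8 against 8 arrays), 1 member passed: Pcsk1 was lower, and 6.73% of all genes were called lower. Untreated, Pcsk1 read 7.62 and 8.07 with passive and active SIgA, 8.15 and 7.77 with passive only, 7.71 and 7.59 with active only and 7.86 and 8.03 with neither. In the DSS-treated arrays of those groups, in that order, it read 7.26 and 7.49, 7.44 and 7.87, 7.39 and 7.38, and 7.60 and 7.56. All 4 group means were lower after DSS, although single arrays overlapped between treatments. The difference was -0.35 ± 0.09 (SE; 1.28-fold lower; limma adjusted p = 0.0195).

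The Pcsk1 call depended on single arrays. It was lost without replicate 2 of the untreated passive and active group (-0.30; limma adjusted p = 0.0503) and without replicate 1 of untreated passive only (-0.30; adjusted p = 0.0545). Without the whole untreated passive and active group it was -0.31 (adjusted p = 0.077).

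None of the 5 peptide hormones passed the threshold by DSS on average. Gcg differed by 0.15 ± 0.09, Pyy by 0.24 ± 0.08 and Insl5 by -0.09 ± 0.10 (limma adjusted p = 0.309, 0.0781 and 0.682). Cck differed by 0.21 ± 0.07 (adjusted p = 0.0718) and Neurod1 by 0.27 ± 0.10 (adjusted p = 0.108). Chga, Chgb, Tph1 and Sst differed by -0.03, 0.10, 0.07 and -0.09. With the untreated passive and active group left out, Neurod1 was 0.16, Gcg 0.06, Chga -0.05, Chgb 0.02 and Tph1 0.02, while Pyy was 0.28 and Cck 0.15. Without the 3 arrays Neurod1 was 0.05, Insl5 -0.04, Sst -0.04, Chgb 0.00 and Tph1 -0.04. The median over the 10 members was 0.08.

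Within single SIgA groups, 2 against 2 arrays, DSS called no member. Pcsk1 differed by -0.47, -0.30, -0.27 and -0.37 in passive and active, passive only, active only and neither. Gcg differed by 0.42, 0.02, 0.45 and -0.29 in the same order, Pyy by 0.13, 0.27, 0.58 and -0.03, and Insl5 by -0.06, -0.22, 0.40 and -0.46. Pyy was lowest in untreated active only arrays, at 8.94 in replicate 1, which stood apart, and 8.49 in replicate 2. The separate DSS-treated pools of active only read 9.34 and 9.25 (0.58 ± 0.17, limma adjusted p = 0.143). These groups called 10.1%, 1.98%, 0.998% and 1.12% of all genes.

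**Figure D5:**
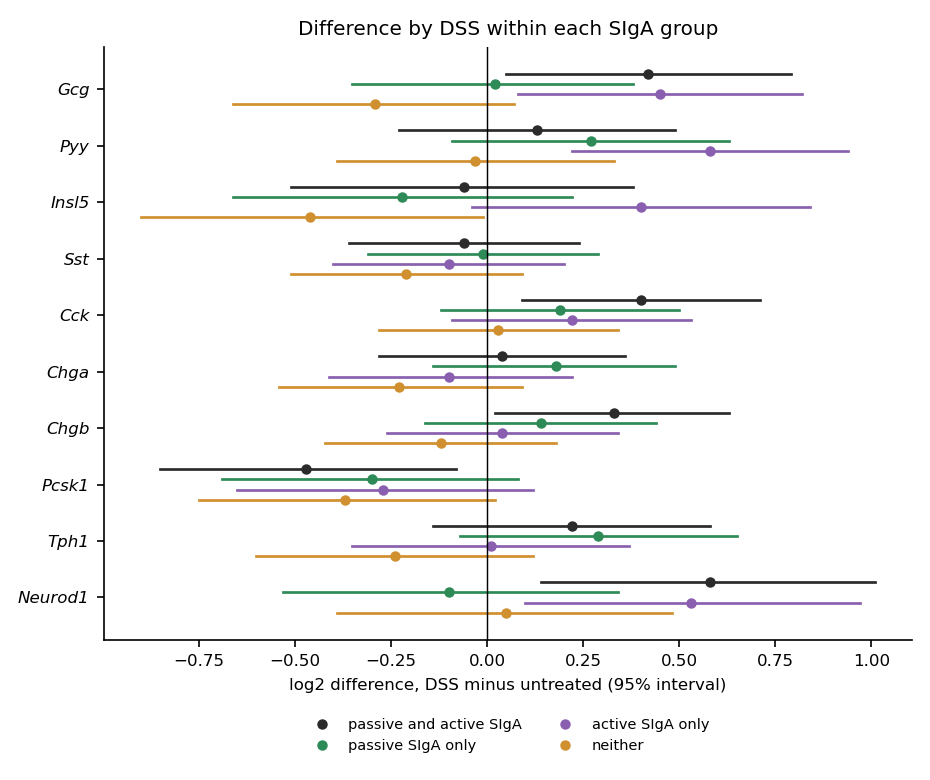
Log2 difference by DSS (DSS minus untreated) within each SIgA group, 2 against 2 arrays, with 95% intervals from limma. Pcsk1 lies below 0 in all 4 groups, between -0.27 and -0.47, whereas Gcg and Insl5 lie on both sides of 0.

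Of the other enteroendocrine lists, DSS on average called 1 of 11 hormones, 2 of 25 granule genes, 2 of 20 sensors and 0 of 16 transcription factors, each a share below the 13.1% called over all genes. Tac1, which encodes substance P and is made by enterochromaffin cells and by neurons, rose by 1.84 ± 0.17, the largest of the 11 other hormones, and all 8 DSS arrays were above all 8 untreated ones (limma adjusted p = 1.44e-05). Among 25 granule genes Cpe rose by 0.52 ± 0.07 and Ddc fell by 0.50 (-0.50 ± 0.08). Of 20 sensors, Ffar4, a receptor for long-chain fatty acids, rose by 0.39 ± 0.08 and Abcc8, a subunit of the ATP-sensitive potassium channel, by 0.20 ± 0.06. Without the untreated passive and active group, Tac1 (1.81), Cpe (0.40) and Ddc (-0.61) were called and Ffar4 (0.34; limma adjusted p = 0.0596) and Abcc8 (0.15; adjusted p = 0.287) were not.

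Of 23 genes for receptors, a transporter and a protease acting on the members' products, 5 fell with DSS and none rose, and 22 differences were below 0, as were 51.4% of those over all genes. Sstr1, a somatostatin receptor, differed by -1.32 ± 0.10, Npy1r, a receptor of the peptide YY family, by -0.81 ± 0.12 and Slc6a4 by -0.49 ± 0.08. Htr4, a serotonin receptor, differed by -0.46 ± 0.06 and Dpp4, the protease that inactivates GLP-1, by -0.30 ± 0.09. Without the untreated passive and active group 4 of the 5 were called, with Dpp4 at -0.35 (limma adjusted p = 0.0626). Without the 3 arrays 5 were called lower, but the number below 0 was 11 of 23. With no array left out, 11 of 14 neutrophil and 9 of 15 monocyte and macrophage markers rose with DSS. In that same fit 2 of 12 colon epithelial markers fell and 1 of 12 neuron and glia markers rose. Of all genes, 6.4% were called higher in it, near the share of the neuron and glia markers, and 6.73% lower. There 310 of the 1285 chemosensory and keratin-associated genes fell, with the 3 arrays that stood apart included. The part of these markers and genes in the changes above was not tested.

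By active SIgA, without minus with, Gcg was the 1 member called in untreated arrays, where 1.57% of all genes were called higher. It read 9.77 and 9.60 with passive only and 9.59 and 9.49 with neither, against 9.43 and 9.52 with passive and active SIgA and 9.09 and 8.68 with active only. One array of the neither group fell below the highest of the passive and active group, so the sets overlapped. The difference was 0.43 ± 0.12 (SE; limma adjusted p = 0.0468), and the call was lost in 13 of the 16 refits that left out 1 array (adjusted p up to 0.129). Without the untreated passive and active group it was 0.66 (adjusted p = 0.447). Neurod1 (0.43 ± 0.14) and Chgb (0.26 ± 0.10) were higher without passing (adjusted p = 0.0857 and 0.117). Leaving that group out, so that the active only and neither groups remain in untreated arrays, Neurod1 was 0.61 and Chgb 0.30, and Insl5, Pyy, Chga and Tph1 were 0.74, 0.63, 0.41 and 0.36, none called. Without the 3 arrays Neurod1 was 0.26 and Gcg 0.86, with 1 active only array left.

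After DSS no member differed by active SIgA at an unadjusted p under 0.05, where 330 genes did, and the 1 gene called (0.00502%) was Pigr. Member differences lay between -0.24 for Insl5 and 0.24 for Pcsk1.

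Across the 16 arrays, the 45 pairs of members had Pearson correlations of -0.59 to 0.85, with a median of 0.41. Gcg, Pyy, Insl5, Chga, Chgb, Tph1 and Neurod1 are the 7 members with an unadjusted p under 0.05 for passive SIgA after DSS. They were picked from values of these same arrays, so part of their likeness was set by that choice. Their 21 pairs had Pearson correlations of 0.41 to 0.85 with a median of 0.68, and 0.43 to 0.87 without the 3 arrays that stood highest in chemosensory genes. Chgb with Tph1 (0.85), Chga with Tph1 (0.82) and Pyy with Insl5 (0.81) were the closest. Pcsk1 followed none of the others closely: its 9 pairs ran from -0.59, with Cck, to 0.26. Arrays share groups and processing, so these values describe the arrays only.

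Among 9565 brighter genes outside the members, Snap25 was the most like Chga (r = 0.87 over 16 arrays, 0.86 over 13) and the second most like Tph1 (0.88). Tph1 was closest to Dctd (0.88), Gcg to Ankrd13a (0.85), Pyy to Mrpl52 (0.90) and Insl5 to Sirt2 (0.84). Chgb was closest to E2f6 (0.86), Pcsk1 to Slc12a8 (0.91), Neurod1 to Unc93b1 (0.91), Cck to Crlf2 (0.88) and Sst to Btbd6 (0.81). Of these nearest genes only Snap25 belongs to the enteroendocrine lists.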

How the data were processed

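Per the labels, colonic epithelial RNA entered a pool only at an integrity number of 8.5 or more, with 3 mice per pool and 1 pool per array. The authors deposited log2 intensities of 35557 probe sets on 16 arrays, made by RMA per the submitters' processing notes; its version and settings are not given in the sources used here. Scanner files were not used here. RMA normalises between arrays, so a shift shared by all genes is removed. Array number, not read depth, limits precision: array medians were 6.68 to 6.83.

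Probe sets annotated to 1 gene (21789; 1621 had several genes and 12147 none, of the platform annotation given) were kept, and the brightest on average was taken for 999 genes with more than 1. limma 3.58.1 in R 4.3.3 fitted a mean per group over all 16 arrays and 19938 genes (8 residual and 5.03 prior degrees of freedom), two-sided, with Benjamini-Hochberg adjustment and a threshold of 0.05; it was tested on simulated data. SIgA differences are without minus with, DSS differences DSS minus untreated. Values are group differences ± SE with 95% intervals. Of listed genes, those called in a passive SIgA or average DSS contrast were named, otherwise up to 3 with the smallest p. Likeness was Pearson r among genes above the median mean, with predicted and olfactory symbols left aside. Promoter sequences came from RefSeq (GRCm38.p6), all 10 members matching by symbol; no build is named for the arrays. The members, lists and tests were chosen with earlier results of these data known. Same-numbered replicates correlated in their deviations by -0.3 to 0.67 (median 0.08; 14 of 28 pairs of groups over 0.1), so the numbers were not taken to pair the arrays. Alternatives were a trended prior, array weights, a replicate block, median centring, quantile normalization, no dim genes, all probe sets, fewer arrays and an adjusted p under 0.1.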

Additional observations from a re-analysis of the deposited data

Results flagged for a closer look

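Effects of opposite direction in every array of the groups compared were found for 5 members. None of the single differences was called, and the change between opposite differences was not tested. The DSS difference of Gcg was 0.45 with active SIgA only and 0.42 with passive and active SIgA, and -0.29 with neither. That of Insl5 was 0.40 with active SIgA only and -0.46 with neither. That of Chgb was 0.33 with passive and active SIgA and -0.12 with neither, and that of Chga was 0.18 with passive SIgA only and -0.10 with active SIgA only. Without the 3 arrays that stood apart, active only was 0.66 for Gcg, 0.54 for Insl5 and -0.04 for Chga, with 1 untreated array left in it. The difference of Sst by passive SIgA was 0.15 in untreated Pigr-/- offspring and -0.15 in DSS-treated Pigr+/- offspring. With 2 arrays in a group, arrays that do not overlap are common. DSS arrays lay wholly above or below untreated ones for 15.2% and 23.1% of all genes with active SIgA only. These shares were 28.4% and 21.9% with passive and active SIgA, 24.3% and 18.7% with passive only, and 19.3% and 21.5% with neither. Arrays without passive SIgA lay wholly above those with it for 21% of all genes in untreated Pigr-/- offspring. They lay wholly below for 13.8% in DSS-treated Pigr+/- offspring.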

How the results depend on the processing

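Each comparison was refitted under each alternative that leaves it arrays; without the untreated passive and active group or the 3 arrays, no value could be had for passive SIgA in untreated Pigr+/- offspring, its interaction with genotype, or DSS with passive and active SIgA. The passive SIgA difference after DSS called 0 members under all of them, and over all genes it called 0 to 25; the interaction with DSS, the active SIgA difference after DSS, the passive SIgA differences in untreated Pigr-/- and in DSS arrays of either genotype, and the DSS differences with passive SIgA only and with neither called 0 members throughout. Counts of called members that moved were as follows. For passive SIgA in untreated arrays (0) they were 1 with a trended prior, 2 with arrays centred on their median, 3 at an adjusted p under 0.1 and 0 to 1 leaving out single arrays. For passive SIgA in untreated Pigr+/- offspring (2) they were 4 with a trended prior, 1 with array weights, 4 with the replicate block, 5 with centring, 0 in a fit of only the arrays compared, 5 at an adjusted p under 0.1 and 0 to 3 leaving out single arrays. For its interaction with genotype (0) they were 1 with a trended prior, 1 with the replicate block, 1 with centring, 1 at an adjusted p under 0.1 and 0 to 1 leaving out single arrays. For active SIgA in untreated arrays (1) they were 2 with the replicate block, 0 with quantile normalization, 0 without the dimmest 30% of genes, 0 in a fit of only the arrays compared, 0 without the untreated passive and active group, 0 without the 3 arrays that stood apart, 2 at an adjusted p under 0.1 and 0 to 1 leaving out single arrays. For DSS on average (1) they were 2 with the replicate block, 2 with quantile normalization, 0 without the untreated passive and active group, 0 without the 3 arrays, 3 at an adjusted p under 0.1 and 0 to 2 leaving out single arrays. For DSS with passive and active SIgA (0) they were 2 with quantile normalization, 1 at an adjusted p under 0.1 and 0 to 3 leaving out single arrays, and with active SIgA only (0) 0 to 1 leaving out single arrays. The replicate block changed no other count of members. The cause of these moves was not tested, except that fewer genes or arrays enter some refits.

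Reversals concerned values that were not called. Without the untreated passive and active group, with or without the third array, passive SIgA differences in untreated arrays became 0.12 for Pyy and 0.03 for Chga; Sst became -0.06 with centring and -0.03 with quantile normalization. Pcsk1 by passive SIgA after DSS became 0.01 with quantile normalization. By active SIgA in untreated arrays Sst became 0.11 and 0.30 without the group and without the 3 arrays, and Cck -0.06 without the group. Tph1 by DSS became -0.04 without the 3 arrays. Leaving out single arrays, passive SIgA differences in untreated arrays ran from -0.08 to 0.12 for Sst and -0.22 to 0.01 for Pcsk1, and after DSS from -0.10 to 0.03 for Cck and -0.14 to 0.07 for Pcsk1. Active SIgA differences in untreated arrays ran from -0.11 to 0.08 for Sst and -0.04 to 0.15 for Cck, and DSS differences from -0.17 to 0.00 for Insl5 and -0.09 to 0.04 for Chga. In untreated Pigr+/- offspring Sst ran from -0.30 to 0.08 and Pcsk1 from -0.41 to 0.03, and in DSS-treated ones Pcsk1 from -0.10 to 0.12. Over all genes, the 514 called for passive SIgA in untreated arrays became 0 without the untreated passive and active group and 1049 with quantile normalization, and the 1494 called for active SIgA became 19 without the dimmest 30% of genes and 0 without that group. The 2618 called for DSS became 1210 without that group. The limits are 2 pools in a group, unnamed litters and 3 arrays that stood apart.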
